A study of Homo sapiens with 6 samples.

Results

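The genes described here are the 3 KDEL receptor genes KDELR1, KDELR2 and KDELR3 and 7 genes of the COPI coat, COPA, COPB1, COPB2, COPG1, COPE, COPZ1 and ARCN1. They were chosen by name, as machinery that returns proteins from the Golgi apparatus to the endoplasmic reticulum, and they are 10 of the 60683 rows of the count table. Messenger RNA was sequenced in 143B cells, a human osteosarcoma line derived from the HOS line. Cells received PBS (3 libraries) or TPBC-PEG (3 libraries), each for 24 h. The series title names photodynamic therapy, in which a compound forms reactive oxygen species under light, but whether light was given to these cells is not stated. The TPBC-PEG dose is 3 µM in the sample titles and 300 µM in the treatment protocol, so it is not settled here. All libraries come from 1 cell line, and no label states that replicates were grown as separate cultures. The p-values therefore cover the spread of these libraries, part or all of which may be technical.

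Soluble proteins of the endoplasmic reticulum, such as chaperones and disulfide isomerases, carry a short retrieval signal at their C-terminus whose best known form is KDEL. Molecules that escape to the Golgi apparatus are bound there by KDEL receptors, membrane proteins that take them up in the acidic Golgi lumen and release them in the endoplasmic reticulum. The return vesicles are wrapped by the COPI coat, a complex of subunits recruited to the membrane by small GTPases of the ARF family, and COPI also carries membrane proteins that show a dilysine signal in the cytosol. Retrieval genes are known as part of the wider transcriptional response to unfolded protein in the endoplasmic reticulum.

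The library totals ran from 15726323 to 20486584 counts, and every member had between 367 and 6563 counts in every library. Levels are given as CPM, counts scaled to a common library size by TMM, and across genes the Pearson correlation of log2 CPM was 0.992 to 0.993 between libraries of a group and 0.985 to 0.988 between groups. VIM and SPARC, genes of the mesenchymal and bone lineage, were abundant, while COL1A2, a further marker of that lineage, was too low to be tested. The summed level of the 7 lineage markers, most of it VIM, was 3038 to 3082 CPM with PBS and 2731 to 2849 CPM with TPBC-PEG. Of the 6 tested, 2 were higher (RUNX2 by 0.55 and SPP1 by 0.79 on the log2 scale) and 3 lower (VIM at -0.14, SPARC at -0.18 and COL1A1 at -0.48), and ALPL did not pass. Of 6 epithelial markers CDH1 and KRT19 were too low to be tested, but KRT18 and KRT8 brought the sum to 902.1 to 942.4 CPM with PBS and 680.3 to 742.8 with TPBC-PEG. KRT18 and KRT8 were lower (-0.42 and -0.21), ESRP1 was higher from a low level (0.232 ± 0.112 to 1.03 ± 0.118 CPM, SD, n = 3), and EPCAM did not pass. VIM shares 24.4% and KRT18 16.3% of exon length with other genes. Of the blood cell markers, PTPRC and ITGAM had 0 counts in all PBS libraries, and 1, 1 and 1 and 5, 2 and 1 counts with TPBC-PEG. CD14 had 20, 18 and 11 counts with PBS and 2, 20 and 12 with TPBC-PEG, and the 4 endothelial markers summed to at most 1.16 CPM in a library. The part of these marker levels in the results was not tested. In bulk RNA, fewer cells and less RNA per cell cannot be told apart.

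After TPBC-PEG, 8 of the 10 genes had higher mRNA, 1 had lower mRNA and 1 did not pass the test. The rises were modest. They were greatest for KDELR3 (1.42-fold), COPG1 (1.41-fold) and COPA (1.31-fold), while COPZ1 fell by 7.55%. Among all 15846 genes tested, 16.2% were called higher and 16.9% lower, 33.2% together. A call is a p-value under 0.05 in edgeR's quasi-likelihood test after Benjamini-Hochberg (BH) adjustment over all of them. For each of the 10 members the 3 TPBC-PEG values lay wholly on one side of the 3 PBS values, as they did for 43.4% of all genes tested. The median log2 fold change was 0.20 over the members and 0.011 over all genes. By the size of the change regardless of direction, the members stood between the 32.9th percentile (KDELR1) and the 88.9th percentile (KDELR3) of all genes.

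**Figure D1:**
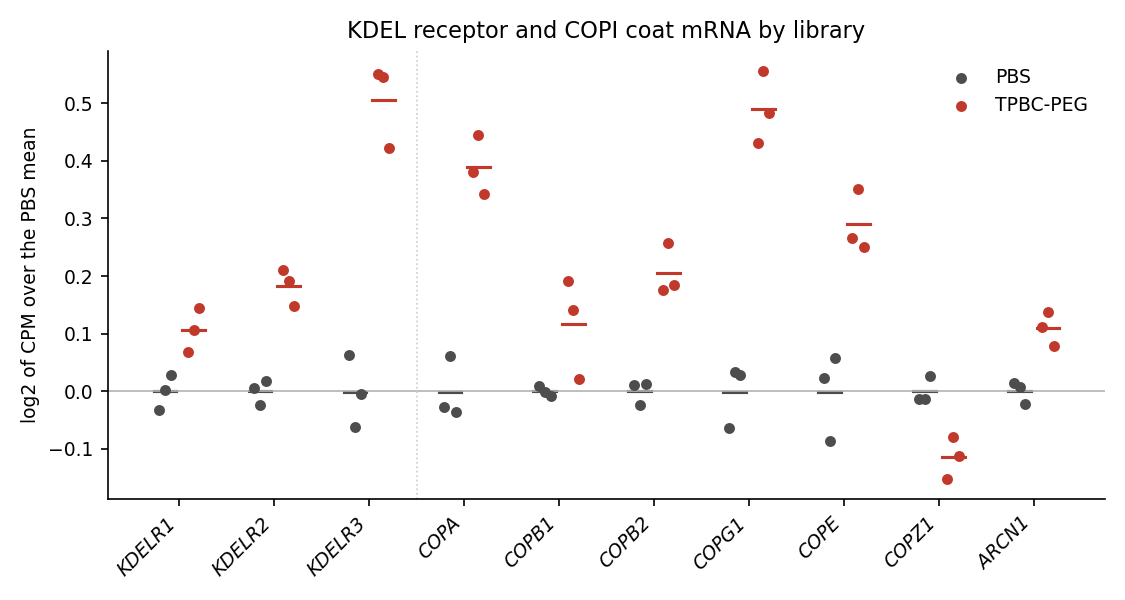
Level of each member in each library, as the log2 of its TMM-scaled CPM over the PBS mean of that gene, with PBS in grey and TPBC-PEG in red; each point is 1 library and the horizontal bar is the group mean (n = 3). KDELR3, COPG1 and COPA stand farthest above 0, COPZ1 is the member below it, and TPBC-PEG replicate 3 of COPB1 lies closest to its PBS values.

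KDELR1 encodes the receptor first described in human cells, and it lies on chromosome 19 from 48382570 to 48391553 (GRCh38, minus strand). Its CPM were 109.3, 111.9 and 114.0 with PBS and 117.1, 120.3 and 123.5 with TPBC-PEG. Every TPBC-PEG value was above every PBS value, but the gap between the groups was narrower than the range within either. The log2 fold change of 0.11 ± 0.04 (SE) missed the threshold (edgeR BH-adjusted p = 0.0534). KDELR1 passed as higher with library size alone (0.15, edgeR BH-adjusted p = 0.00561), with upper quartile scaling (0.11, 0.0426), with a trend on GC content removed (0.14, 0.00814) and with a trend on expression level removed (0.17, 0.00152).

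KDELR2, on chromosome 7 from 6445953 to 6484242 (minus strand), is the receptor gene with the most reads here. Its CPM were 215.6, 211.4 and 217.5 with PBS and 248.6, 245.3 and 238.0 with TPBC-PEG. The groups were well apart, with TPBC-PEG replicate 3 the lowest of its group. KDELR2 rose by 0.18 ± 0.04 (SE) on the log2 scale, or 13.59% (edgeR BH-adjusted p = 0.000111).

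KDELR3, on chromosome 22 from 38468062 to 38483447 (plus strand), is the least abundant receptor gene in these cells. It had the greatest rise of the 10 members in the main fit. Its CPM were 24.25, 22.22 and 23.14 with PBS and 33.97, 33.85 and 31.10 with TPBC-PEG. All TPBC-PEG libraries were high, and the lowest of them was well above the highest PBS library. The log2 fold change was 0.51 ± 0.07 (SE), with an edgeR BH-adjusted p of 1.76e-07 (edgeR quasi-likelihood, Benjamini-Hochberg). COPG1, at 0.49 ± 0.04, was close to it. COPG1 rose more than KDELR3 with the GC trend removed (0.52 against 0.50) and with the expression-level trend removed (0.57 against 0.52). It also did so without PBS replicate 2 (0.51 against 0.48) and without TPBC-PEG replicate 1 (0.52 against 0.49). In the other alternatives KDELR3 rose more.

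The receptor genes were compared within each library by the log2 ratio of their CPM, which does not depend on library scaling. The ratio of KDELR3 to KDELR1 was -2.17, -2.33 and -2.30 with PBS and -1.79, -1.83 and -1.99 with TPBC-PEG. The groups did not overlap, and the means differed by 0.40 (two-sided exact permutation p = 0.1, or 0.2 adjusted over 6 ratios). KDELR3 also stood higher against KDELR2, with mean log2 ratios of -3.21 ± 0.052 and -2.89 ± 0.042 (SD, n = 3) and no overlap (exact permutation p = 0.1, adjusted p = 0.2). The ratio of KDELR2 to KDELR1 was 0.98, 0.92 and 0.93 with PBS and 1.09, 1.03 and 0.95 with TPBC-PEG. Those groups overlapped (exact permutation p = 0.2, adjusted p = 0.3). With 3 libraries a group the lowest possible p is 0.1, so none of these tests could reach 0.05.

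COPA encodes alpha-COP, which with COPB2 (beta prime-COP) forms the outer cage of the coat and reads dilysine signals. COPA lies on chromosome 1 from 160288686 to 160343400 (minus strand), and its CPM were 203.5, 216.4 and 202.4 with PBS and 270.1, 282.4 and 262.9 with TPBC-PEG. The groups were far apart relative to their spread, and the log2 fold change was 0.39 ± 0.04 (SE; edgeR BH-adjusted p = 1.76e-11). COPB2, on chromosome 3 from 139355600 to 139389732 (minus strand), had 266.5, 260.4 and 267.0 CPM with PBS and 299.0, 316.4 and 300.6 with TPBC-PEG. It rose in all libraries by a lesser amount, 0.21 ± 0.04 (edgeR BH-adjusted p = 1.44e-05). COPE encodes epsilon-COP, which binds alpha-COP and steadies it, and lies on chromosome 19 from 18899514 to 18919397 (minus strand). It had 26.96, 24.99 and 27.62 CPM with PBS and 31.91, 33.85 and 31.54 with TPBC-PEG. COPE was the least abundant coat gene in both groups, and its log2 fold change was 0.29 ± 0.07 (edgeR BH-adjusted p = 0.000979).

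The other coat genes encode the inner layer, which resembles the clathrin adaptors and contacts the membrane and ARF. COPG1, the gene of gamma-COP on chromosome 3 from 129249606 to 129277773 (plus strand), had 131.3, 140.6 and 140.0 CPM with PBS and 185.1, 201.8 and 192.0 with TPBC-PEG. This was the greatest rise in the coat, 0.49 ± 0.04 (SE) on the log2 scale, and the smallest p among the members (edgeR BH-adjusted p = 9.68e-14). COPB1, the gene of beta-COP on chromosome 11 from 14443440 to 14500027 (minus strand), had 202.3, 200.7 and 199.7 CPM with PBS and 229.4, 221.5 and 203.8 with TPBC-PEG. TPBC-PEG replicate 3 stood barely above the highest PBS library, and the log2 fold change was 0.12 ± 0.04 (edgeR BH-adjusted p = 0.017). ARCN1, the gene of delta-COP on the same chromosome from 118572390 to 118603033 (plus strand), had 284.1, 282.9 and 277.1 CPM with PBS and 303.9, 309.6 and 297.1 with TPBC-PEG. Its groups did not overlap, and its log2 fold change was 0.11 ± 0.04 (edgeR BH-adjusted p = 0.0168). COPZ1, the gene of zeta-COP on chromosome 12 from 54301202 to 54351849 (plus strand), had 180.4, 180.5 and 185.6 CPM with PBS and 164.0, 172.5 and 168.6 with TPBC-PEG. It was the member that fell, at a log2 fold change of -0.11 ± 0.04 (edgeR BH-adjusted p = 0.0213).

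The small changes were less secure than the large ones. COPB1 was not called without PBS replicate 3 (edgeR BH-adjusted p = 0.0605), without TPBC-PEG replicate 1 (0.202) or without TPBC-PEG replicate 2 (0.0868), with the GC trend removed (0.056) or with DESeq2 (its own adjusted p 0.055). ARCN1 was not called without PBS replicate 3 (edgeR BH-adjusted p = 0.072), without either of TPBC-PEG replicates 1 (0.0653) and 2 (0.107), or with no filter on low counts (0.0533). COPZ1 was not called without PBS replicate 3 (edgeR BH-adjusted p = 0.0675) or TPBC-PEG replicate 1 (0.133), with library size alone (-0.07, adjusted p = 0.172) or with the expression-level trend removed (-0.03, adjusted p = 0.618). The calls of KDELR2, KDELR3, COPA, COPB2, COPG1 and COPE held in every alternative tried except the test against a 1.5-fold change, which called 0 of the 10 members (also 0 at an unadjusted p under 0.05).

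Gamma-COP and zeta-COP each have a second gene, COPG2 and COPZ2, and neither passed the test. COPG2 had 46.10, 55.91 and 52.28 CPM with PBS and 50.15, 50.00 and 49.41 with TPBC-PEG. The TPBC-PEG values lay within the PBS range (log2 fold change -0.04 ± 0.06, edgeR BH-adjusted p = 0.645). Its sign turned with library size alone and without PBS replicate 2. Of its exon length 11.3% is shared with other genes, with MEST for the largest part, so its counts are less certain. The log2 ratio of COPG2 to COPG1 was -1.51, -1.33 and -1.42 with PBS and -1.88, -2.01 and -1.96 with TPBC-PEG. All TPBC-PEG values were lower, and the means differed by -0.53 (exact permutation p = 0.1, adjusted p = 0.2, n = 3). COPZ2 stood at about 1 CPM in both groups (1.04 ± 0.222 and 0.997 ± 0.0188, SD, n = 3). Its log2 ratio to COPZ1 differed between the groups by 0.08, with overlap (exact permutation p = 0.7, adjusted p = 0.7).

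Levels of different genes were compared as CPM per kilobase of the gene's main coding transcript (chosen by the principal isoform, CCDS and basic tags of GENCODE, then coding length). With PBS the order was COPZ1 at 96.03 ± 1.56, COPB2 at 78.76 ± 1.09, KDELR2 at 74.49 ± 1.08, ARCN1 at 73.17 ± 0.972, KDELR1 at 71.75 ± 1.53, COPB1 at 59.41 ± 0.393, COPG1 at 44.61 ± 1.7, COPA at 43.31 ± 1.63, COPE at 23.25 ± 1.2 and KDELR3 at 13.43 ± 0.588 (SD, n = 3). The neighbours KDELR2 and ARCN1, ARCN1 and KDELR1, and COPG1 and COPA each differed by less than the sum of their SDs. With TPBC-PEG the top of the order was COPB2 at 90.87 ± 2.87 and COPZ1 at 88.76 ± 2.22, which also differed by less than the sum of their SDs, as did ARCN1 and KDELR1, and COPB1 and COPG1. The order also rests on which length is used. Per kilobase of all annotated exons ARCN1 came first with PBS, at 67.36, and COPE last, at 9.19.

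Coat genes differed less from one another after TPBC-PEG. The most abundant coat gene stood 4.14 ± 0.179 times above the least abundant with PBS and 3.20 ± 0.0335 times with TPBC-PEG (SD, n = 3), and without COPE these ratios were 2.22 ± 0.106 and 1.60 ± 0.0264. The summed level per kilobase was 418.5 ± 1.73 and 471.0 ± 12.8 for the coat, and 159.7 ± 2.1 and 180.9 ± 1.05 for the receptors. The TPBC-PEG sum was 1.125 times the PBS sum for the coat and 1.133 times for the receptors. Within a library, the log2 ratio of KDELR2 to COPB2 differed between groups by -0.02, with overlap (exact permutation p = 0.5, adjusted p = 0.6, n = 3). Of the summed receptor level KDELR3 held 8.41% ± 0.367 with PBS and 10.5% ± 0.465 with TPBC-PEG, and KDELR1 held 44.9% ± 0.701 and 42.7% ± 1.3. KDELR2 stayed near 46.7% in both groups.

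**Figure D2:**
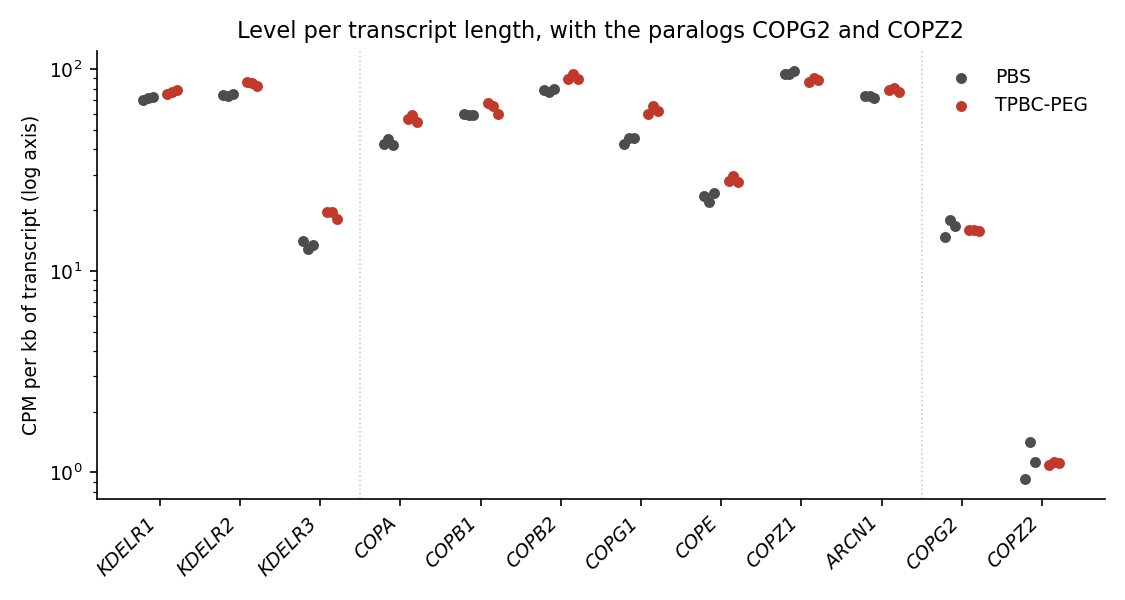
CPM per kilobase of the main coding transcript, on a log axis, for the 10 members and the paralogs COPG2 and COPZ2, with 1 point for each library (PBS grey, TPBC-PEG red). KDELR3 lies well below the other receptor genes and COPE below the other 6 coat members, while COPG2 is lower than COPE and COPZ2 stands near 1 in both groups.

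The promoters of members were searched for 4 sequences known from the unfolded protein and amino acid responses, since most members moved together. RefSeq gives a 300-base window, 250 bases before and 50 after the start, for 9 of the 10 members (GRCh38.p14), KDELR2 being the exception. The letters TGACGTGG, known as the unfolded protein response element (UPRE), were found on either strand in 4 of the 9 members, 0.729% of all 35116 windows and 1.26% of the 11331 tested genes with a window. The stretches of 30 bases around the matches are given 5′ to 3′ on the strand of the gene, with the match in capitals:

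KDELR3, chr22:38468039-38468068, plus strand: ggccgccctggCCACGTCAccgcccggcca

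COPA, chr1:160343227-160343256, minus strand: gagagggtcgcTGACGTGGaggcgtccgaa

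COPB1, chr11:14499841-14499870, minus strand: cccacccccttCCACGTCAgccaaggactc

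COPB2, chr3:139389632-139389661, minus strand: tcccggaagttCCACGTCAgtcagtctgac

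COPB2, chr3:139389825-139389854, minus strand: gctcagcggcaCCACGTCAcggcccttagt

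The match in COPA reads along the gene and begins at base 6 after the start, while the others lie on the opposite strand. They begin at base -46 in KDELR3, -48 in COPB1, and -3 and -196 in COPB2. The 4 genes with a match had log2 fold changes of 0.51 (KDELR3), 0.39 (COPA), 0.21 (COPB2) and 0.12 (COPB1), while COPG1, at 0.49, had none. Of the 143 tested genes with this match 53 (37.1%) were called higher and 15 lower, with a median log2 fold change of 0.11. The 143 include the 4 members themselves, each called higher. Among all genes tested 16.2% were called higher and 16.9% lower, and the difference in shares was not tested. The other patterns were ERSE (CCAAT and CCACG, 9 bases between them), ERSE-II (ATTGG and CCACG, 1 base between them) and an ATF4 site (TGATG, any base, AA), searched on both strands. They matched 0.0769%, 0.0541% and 3.62% of all windows and none of the 9 members. A higher share than over all genes was not particular to the UPRE. With ERSE 12 of 16 tested genes (75.0%) were called higher and 1 lower. With ERSE-II 5 of 15 (33.3%) were higher and 5 lower, and with the ATF4 site 87 of 320 (27.2%) were higher and 44 lower. These shares were not tested either. The letters CCACG of both ERSE forms also stand in the reverse complement of the UPRE. A match is a match of letters, not a measured binding site.

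Genes whose product carries the receptors' signal were taken as those whose main coding transcript ends in codons for K, R, H or Q followed by DEL or EEL. This gave 44 rows, 39 of them tested. Their log2 fold changes ran from -0.44 to 2.04, and those of the 3 receptor genes from 0.11 to 0.51. The larger number of signal genes can by itself widen their range. Of the 39, 18 were higher and 5 lower after TPBC-PEG, beside 16.2% and 16.9% of all genes tested. The median log2 fold change was 0.11, and 0.18 for the receptor genes. Those ending in DEL numbered 27 (13 higher, 3 lower, median 0.14), and those ending in EEL 12 (5 higher, 2 lower, median 0.01). RMDN2, FAM172A and RAB3IP meet the rule by letters alone, since they are not known as proteins of the lumen. The ends of the coding sequence are shown for the signal genes with the greatest rises and for the one with the greatest fall, with the 4 codons of the signal in capitals and the stop codon last (GRCh38):

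HSPA5, signal KDEL, chr9:125236592-125236618, minus strand: gatacagcagaaAAAGATGAGTTGtag

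HSP90B1, signal KDEL, chr12:103947636-103947662, plus strand: tctacagctgaaAAAGATGAATTGtaa

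PDIA4, signal KEEL, chr7:149003794-149003820, minus strand: ctgagcaggaccAAGGAAGAGCTTtga

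SDF2L1, signal HDEL, chr22:21644149-21644175, plus strand: ccctctgcaggtCACGATGAACTCtga

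PRKCSH, signal HDEL, chr19:11449386-11449412, plus strand: accgaagacgacCATGACGAGCTCtag

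HSPA5, the gene of the chaperone BiP, had 892.0, 945.2 and 955.9 CPM with PBS and 3810, 4370 and 3308 with TPBC-PEG. It rose 4.11-fold, far more than any receptor (log2 fold change 2.04 ± 0.12 SE, edgeR BH-adjusted p = 0.000293). HSP90B1, the gene of the chaperone GRP94, had 1057, 1083 and 1122 CPM with PBS and 2424, 2601 and 2232 with TPBC-PEG (1.15 ± 0.04). PDIA4, a disulfide isomerase gene, had 200.6, 217.8 and 205.6 CPM and then 433.4, 476.6 and 420.9 (1.09 ± 0.04). In each of these the groups were far apart. SDF2L1 rose by 0.80 ± 0.08, and DNAJC10, a disulfide reductase gene, by 0.66 ± 0.04. PDIA5 rose by 0.62 ± 0.08, and it shares 14.3% of its exon length with other genes, with SEC22A for the largest part. In the other direction, PRKCSH, the gene of the beta subunit of glucosidase II, had 336.8, 355.5 and 348.7 CPM with PBS and 241.9, 243.7 and 281.9 with TPBC-PEG. PRKCSH fell by 0.44 ± 0.05 with no overlap between groups. The collagen prolyl hydroxylase gene P3H2 fell by 0.29 ± 0.06 and FOXRED2 by 0.25 ± 0.09. FKBP10 fell by 0.13 ± 0.04 and COLGALT1 by 0.13 ± 0.05. The last 3 calls were insecure. FKBP10 stood at -0.06 with the GC trend removed and -0.04 with the expression-level trend removed (edgeR BH-adjusted p = 0.32 and 0.523), and COLGALT1 at -0.06 and -0.07 (0.339 and 0.297). With library size alone FKBP10, COLGALT1 and FOXRED2 were not called either (edgeR BH-adjusted p = 0.11, 0.186 and 0.0625), and FOXRED2 was not with the GC trend removed (0.0531). DESeq2 did not call COLGALT1 (0.0592) or FOXRED2 (0.0567). All 3 calls were lost without PBS replicate 2 (FOXRED2 0.198, FKBP10 0.0769, COLGALT1 0.127) and without TPBC-PEG replicate 1 (0.0682, 0.0882 and 0.101 in that order). Those of FOXRED2 and FKBP10 were also lost without PBS replicate 3 (0.0527 and 0.0665), and those of FOXRED2 and COLGALT1 without TPBC-PEG replicate 2 (0.0559 and 0.186).

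Summed per kilobase over the signal genes tested, the level was 2063 ± 35.2 with PBS and 3513 ± 232 with TPBC-PEG (SD, n = 3), a ratio of 1.703 beside 1.133 for the receptors. The sum of signal gene mRNA per receptor mRNA was 12.72, 13.18 and 12.86 with PBS and 19.22, 20.67 and 18.35 with TPBC-PEG. All TPBC-PEG values were above all PBS values. HSPA5 alone made up much of the difference: without it the ratio was 11.4 ± 0.195 and 14.0 ± 0.465. These are mRNA levels, and protein was not measured. The sums and ratios rest on the transcript lengths chosen, such as 20129 bases for DNAJC10, and no other length was tried for them. Some signal genes in the sum share much exon length with other genes, so their counts are less certain. Examples are TXNDC5 (60.6%), CNPY2 (41.5%), PDIA6 (25.2%) and RCN1 (21.9%). The signal gene sum includes RMDN2, FAM172A and RAB3IP, which meet the rule by letters alone. Their levels were small, the highest being 6.68 for RAB3IP with TPBC-PEG.

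**Figure D3:**
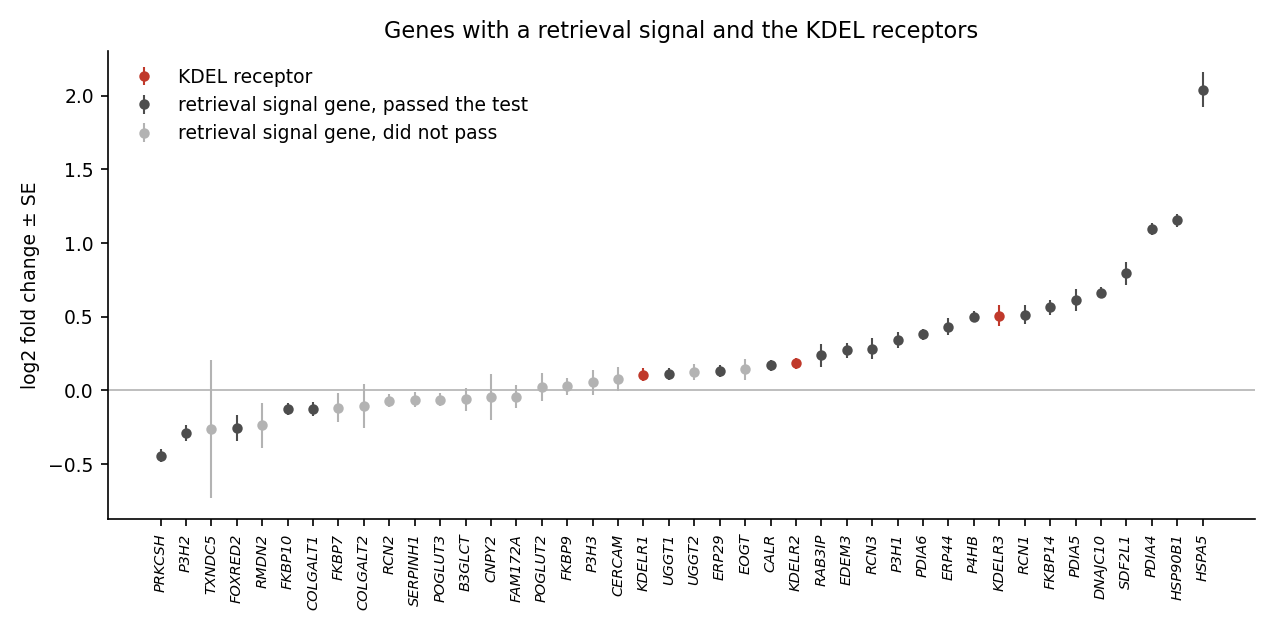
Log2 fold change, TPBC-PEG over PBS, with its standard error, for the 39 tested genes with a retrieval signal (dark where they passed the test, light where they did not) and the 3 receptor genes (red), in order of the fold change. HSPA5 stands at 2.04 and PRKCSH at -0.44, and KDELR1 and KDELR2 lie among the signal genes of small change.

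The ARF cycle, which loads and removes the coat, moved in both directions. Of 8 genes 3 were higher and 2 lower, with a median log2 fold change of -0.02, beside 16.2% and 16.9% of all genes tested. ARFGAP3, a GTPase-activating protein of ARF, rose by 0.44 ± 0.07 (SE), from 27.46 ± 1.8 to 37.15 ± 3.34 CPM, and ARF4 rose by 0.25 ± 0.04. ARF3 fell by 0.29 ± 0.04 and ARFGAP2 by 0.18 ± 0.06 (edgeR BH-adjusted p = 0.015). ARFGAP2 was not called without PBS replicate 1 (edgeR BH-adjusted p = 0.0651) or without either of TPBC-PEG replicates 2 (0.0975) and 3 (0.0532). Its call also ended with library size alone (0.0805), with the GC trend removed (-0.11, edgeR BH-adjusted p = 0.13) and with the expression-level trend removed (0.0539). ARF4 and ARF3 share 11.6% and 13.8% of their exon length with other annotated genes, and strand use in the counting is not given.

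Cargo receptors of the p24 family, which travel between endoplasmic reticulum and Golgi in COPI and COPII vesicles, were higher in 6 of 8 cases and lower in 0, with a median of 0.27 (0 lower also at an unadjusted p under 0.05, and by DESeq2 and limma-voom). TMED5 rose by 0.41 ± 0.05 (SE), from 132.6 ± 9.19 to 176.6 ± 13.1 CPM, and TMED9 by 0.37 ± 0.04, from 140.9 ± 7.48 to 182.5 ± 6.99 CPM. Of 8 other cargo receptors 3 were higher and 2 lower (median 0.00). For both lists the shares over all genes tested were 16.2% higher and 16.9% lower. SURF4, a receptor for soluble cargo, rose from 180.1 ± 2.48 to 229.4 ± 8.82 CPM and LMAN1, a lectin that carries glycoproteins out of the endoplasmic reticulum, from 454.8 ± 3.78 to 579.7 ± 16.8 CPM, each by 0.35 ± 0.04. ERGIC1 fell by 0.40 ± 0.04 and MCFD2, the partner of LMAN1, by 0.10 ± 0.04. MCFD2 was not called without TPBC-PEG replicate 1 (edgeR BH-adjusted p = 0.064) or with library size alone (adjusted p = 0.167), and it stood at 0.01 with the expression-level trend removed (adjusted p = 0.8). The dilysine signal of COPI was taken as lysine codons at position -3 and at -4 or -5 from the end. Of these 16 genes TMED4, TMED9, SURF4 and LMAN1 met this rule, and all 4 were higher. Of the 12 that did not meet it 5 were higher and 2 lower. The 12 include TMED10, which has lysine codons at -4 and -5 and was higher (log2 fold change 0.30). The division by this rule was not tested.

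Docking of the returning vesicle uses tethers and SNARE proteins of the endoplasmic reticulum. Here 3 of 10 genes were higher and 1 lower (median -0.01), and 1 and 1 by DESeq2. Over all genes tested 16.2% were higher and 16.9% lower, 33.2% together. Whether this list or those below differ from these shares was not tested. SCFD1, an SM protein of both directions of transport, rose by 0.19 ± 0.05 (SE) and NBAS, a tether subunit, by 0.16 ± 0.06. NBAS was not called without PBS replicate 2 (edgeR BH-adjusted p = 0.148), PBS replicate 3 (0.0522), or either of TPBC-PEG replicates 1 (0.0581) and 2 (0.126), with no filter on low counts (0.0605) or by DESeq2 (0.0762). SCFD2 fell from 31.92 ± 1.44 to 21.67 ± 0.747 CPM, the lowest change in the lists on transport (-0.56 ± 0.07). Among 14 Golgi SNAREs, tethers and RAB genes 6 were higher and 1 lower (median 0.11). BET1, a SNARE of vesicles from the endoplasmic reticulum, rose from 26.79 ± 0.477 to 42.98 ± 5.68 CPM (0.69 ± 0.07) and USO1, the tether p115, by 0.35 ± 0.05. RAB1B, at -0.31 ± 0.04, shares 42.6% of its exon length with other annotated genes. Of the 8 genes of the COG complex, a tether for vesicles within the Golgi, 4 were higher and 2 lower (median 0.20). COG6 rose by 0.47 ± 0.07 and COG5 by 0.33 ± 0.05, although COG5 shares 18.1% of its exon length with other annotated genes. COG4 fell by 0.27 ± 0.07 and COG2 by 0.15 ± 0.06. The COG2 call (edgeR BH-adjusted p = 0.0468) was lost when any 1 of the 6 libraries was left out, with adjusted p from 0.0571 to 0.165 (edgeR quasi-likelihood, Benjamini-Hochberg). It was also lost with library size alone (0.184), upper quartile scaling (0.0568), no filter (0.0677), DESeq2 (0.0792) and the expression-level trend removed (0.124).

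Other coats were set beside COPI, and beside the 16.2% higher and 16.9% lower of all genes tested. The COPII coat, which forms vesicles leaving the endoplasmic reticulum, had 9 of 13 genes higher and 0 lower (8 and 0 by DESeq2), with a median of 0.16 beside 0.21 for the 7 COPI genes. SEC24D, a cargo-selecting subunit, had 56.74, 57.91 and 56.06 CPM with PBS and 106.0, 114.3 and 101.3 with TPBC-PEG, a rise of 0.92 ± 0.05 (SE) that exceeded that of every receptor and coat gene described above. SEC31A, of the outer COPII cage, rose by 0.34 ± 0.04. The AP1 and clathrin coat, which serves the trans-Golgi network and endosomes, had 5 of 9 genes lower and 0 higher, with a median of -0.18. By DESeq2 and limma-voom 0 COPII genes were lower and 0 AP1 and clathrin genes higher, and an unadjusted p under 0.05 in edgeR gave 0 for both as well. CLTB, a clathrin light chain gene, fell from 62.01 ± 3.98 to 46.74 ± 4.38 CPM (log2 fold change -0.42 ± 0.06), and AP1S3 fell by 0.34 ± 0.11. AP1S3 was not called without PBS replicate 1 (edgeR BH-adjusted p = 0.0544), PBS replicate 3 (0.0501) or TPBC-PEG replicate 2 (0.0727). Whether the lists differ from one another was not tested.

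**Figure D4:**
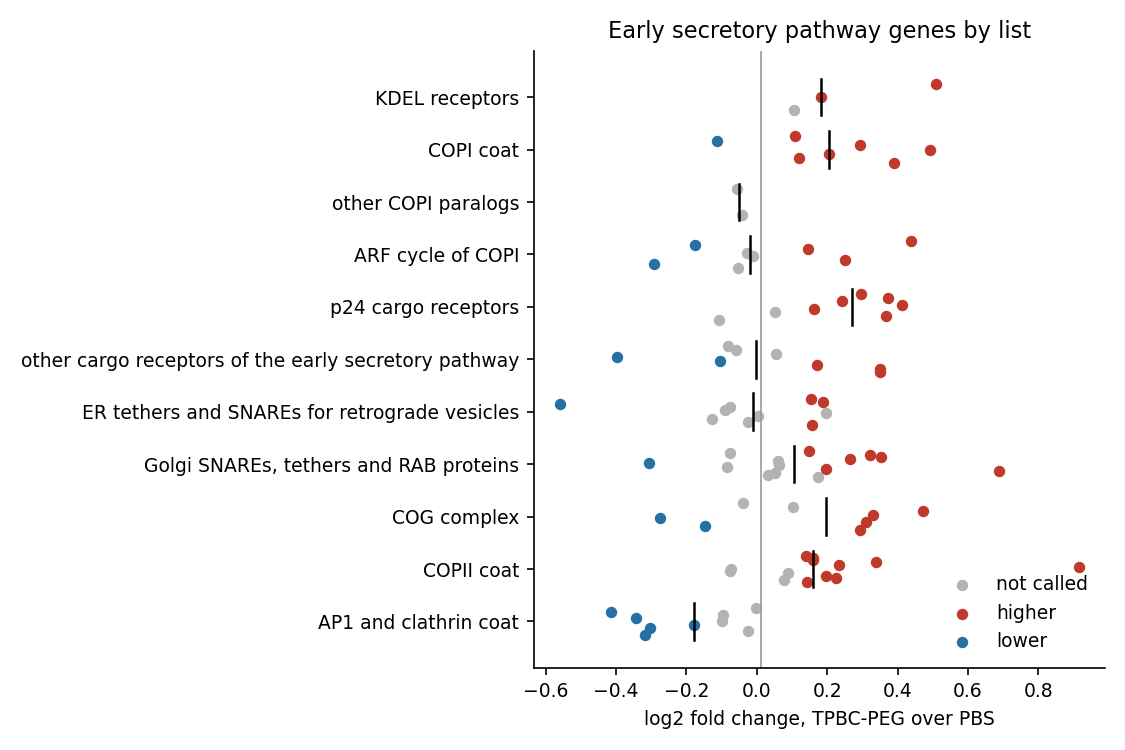
Log2 fold change, TPBC-PEG over PBS, of every tested gene in the receptor and coat lists and the other lists of the early secretory pathway; each point is a gene, coloured by its call, the black bar is the list's median and the grey line the median of all genes tested (0.011). The COPI and COPII points lie mostly to the right of the line and the AP1 and clathrin points to the left.

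The genes whose profile over the 6 libraries lay nearest to each receptor were found by the Euclidean distance of log2 CPM, each gene centred on its PBS mean. Nearest to KDELR1 were ATXN7L3B (0.0336), STK32C (0.0400) and RACK1 (0.0457). For KDELR2 they were OSER1 (0.0374), CCDC90B (0.0404) and GPBP1 (0.0420). For KDELR3 they were RBM20 (0.0644), SLC38A2 (0.0703) and LACC1 (0.0718), and for the mean of the 7 coat genes DYNC2H1 (0.0423), PIK3C2A (0.0448) and MORF4L2 (0.0449). Each receptor was left out of its own search, and the 7 coat genes were left out of the search for their mean. None of the members that could be found was among the nearest genes. CCDC90B and LACC1 share over 10% of their exon length with other genes.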

How the data were processed

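The deposited values are unnormalised read counts per gene and library. HISAT2 and GRCh38 are named in the submitters' processing notes. What counted the reads, with which annotation and strand setting, and how reads with several alignments were treated is not given in the sources used here. Rows carry Ensembl identifiers, and symbols were found for 42013 of 60683. All 112 genes of the lists matched a row. Coordinates, transcript lengths, exon overlaps and coding ends came from GENCODE 29 on GRCh38.

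The deposited counts were filtered with filterByExpr (minimum count 10, minimum total 15), which left 15846 genes, and scaled by TMM in edgeR 4.0.16 (R 4.3.3). TPBC-PEG was compared with PBS by the quasi-likelihood test with robust estimation and group as the only term. Adjustment (Benjamini-Hochberg, BH) ran over all genes. The common biological coefficient of variation was 4.19%, and no library was a copy of another by a chi-square test of counts. The script was tested on simulated data. Ratios within a library were compared by exact two-sided permutation tests.

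The members, lists and tests were chosen with earlier results of these data known. All members are named. Of each other list the text names up to 2 called genes per direction by size of change (up to 6 for retrieval signal genes), or the 2 most abundant where none is called. The marker genes, the dilysine genes, TMED10 and the 3 signal genes matched by letters alone are named as well. The retrieval and dilysine signals were read from coding bases, not from a protein table as planned. The 3 nearest profiles are named for each receptor and the coat mean. The rule for members, lists, signal genes and profiles gave 59 genes, 8 of them with over 10% of exon length shared.

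The 18 alternatives were other scaling (DESeq2 size factors, library size, upper quartile), other filters, DESeq2 1.42.0, limma-voom (limma 3.58.1), a test against a 1.5-fold change, non-robust estimation, a replicate block, removal of lowess trends (span 0.3) with GC content or expression level, and leaving out each library. Some marker genes of the lists are not reported here.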

Additional observations from a re-analysis of the deposited data

How the results depend on the processing

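The number of members called higher was 8, and it was 0 when tested against a 1.5-fold change, 6 to 8 with 1 library left out and 7 to 9 otherwise. The number called lower was 1, and it was 0 with library size alone, against a 1.5-fold change and with the expression-level trend removed, and 0 to 1 with 1 library left out. No member turned its direction in any of 180 fitted values. With library size alone 3213 of all genes were higher and 1971 lower (62.0% higher, against 49.0% with TMM), and the median log2 fold change of all genes moved from 0.011 to 0.054. With the expression-level trend removed 2886 were higher and 2059 lower, and against a 1.5-fold change 131 were higher and 14 lower. COPG2 stood at 0.0005 with library size alone and at -0.1265 to 0.0216 with 1 library left out, and COPZ2 at -0.2088 to 0.1198. MCFD2 stood at 0.0146 with the expression-level trend removed. The difference of the log2 ratio of COPZ2 to COPZ1 ran from -0.0647 to 0.2407 with 1 library left out, and no other ratio changed sign. The cause of these shifts was not tested. No effect shared by equal replicate numbers was seen: same-number deviations correlated at 0.0034, 0.065 and -0.015. Of 6 libraries 2 correlated best with their own number. So few libraries cannot exclude that equal numbers mark paired samples, and the labels do not say. With the replicate block 8 members were higher and 1 lower. Of the other named genes COG2 lost its call with the block (edgeR BH-adjusted p = 0.0572). KDELR3 and COPE, the members with the fewest counts, had standard errors of 0.073 and 0.071, against 0.037 to 0.044 for the others, and the exact tests of ratios could not go below 0.1.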
